A study of Mus musculus with 12 samples.

Results

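The mitosis and G2/M genes followed here are 48 named genes that act between the end of DNA replication and the separation of the daughter cells. They were taken from a list of names drawn up with earlier results of these data known. The Ensembl identifiers of the count tables were matched to mouse symbols, and all 48 were found among the 56941 genes of the tables. Their RNA was measured by RNA-seq in 12 cultures of bone-marrow-derived macrophages, 3 in each of 4 groups. The mice were C57BL/6J, either wild type (WT) or with both copies of the microRNA gene miR-210 deleted (miR-210 KO), and both genotypes came from matings of heterozygous mice. The deletion was first made by crossing floxed mice with Gata-1 Cre mice and was then passed through the germline, so it was present in every cell and not in macrophages alone. The age of the mice was not given in the sources used here. Monocytes were enriched from the marrow with magnetic beads by depleting neutrophils, lymphocytes, dendritic cells and erythrocytes, and 7 days with M-CSF from L929-conditioned medium gave M0 macrophages. M2-like macrophages received a further 72 h with 20 ng/mL of the cytokine IL-4, and the WT M0 and KO M0 wells were kept alike over that time without it. The labels do not say whether the 3 libraries of a group came from separate mice, so the p-values below measure only the spread between these libraries, which may be technical. Each group also carries a batch name of its own, and batch and group cannot be told apart.

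A cell enters mitosis when CDK1, a kinase that works only when bound to a cyclin, is switched on by CDC25 phosphatases. The chromosomes then condense, their kinetochores attach to the spindle, and a checkpoint holds back the anaphase-promoting complex until every chromosome is attached. Many genes of this programme are held silent in resting cells by the DREAM complex and are switched on late in the cell cycle by MuvB, B-MYB and FOXM1. These factors act at a promoter element called CHR, and the factor NF-Y often binds CCAAT boxes nearby. Macrophages from marrow divide in response to M-CSF, and IL-4 is known to drive the division of resident macrophages in tissues. In RNA of a whole culture, more cells in mitosis and more RNA per cell cannot be told apart.

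The microRNA removed in the miR-210 KO is shown first, because its seed decides which transcripts it can pair with. The mature sequence is from RefSeq (GRCm38.p6, chr7:141221407-141221428, minus strand), 5′ to 3′, with the seed, bases 2 to 8, in capitals.
mmu-miR-210-3p: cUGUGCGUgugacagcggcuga
A match to the seed, the letters ACGCACA, was searched in the longest annotated 3′ untranslated region of each protein-coding gene. None of the 48 genes held it, against 882 of 21522 genes overall (4.1%). The median length of this region was 719 bases in the 48 genes and 1410 bases overall. A missing match says only that these letters are not there.

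Promoters are shown for 3 genes that rose with IL-4 and for Pttg1, which fell, all picked after their values were seen. RefSeq windows from 250 bases before to 50 after the transcription start (GRCm38.p6) were found for 39 of the 48 genes, 42 windows in all since Psrc1, Ect2 and Gtse1 have a pair each. Ccna2, Cdc25c, Tpx2, Aurkb, Stmn1, Kif20a, Smc4, Cdca2 and Foxm1 were not matched. The CHR was searched as TTTGAA and, as a second accepted form of the element, as TTCGAA. The CCAAT box was searched by the letters of its name. Both strands were searched and matches are in capitals, so a CCAAT box on the opposite strand is seen as ATTGG. Where a box on each strand overlaps, as once in Ube2c, the capitals run together.
Ube2c, chr2:164769679-164769978, plus strand: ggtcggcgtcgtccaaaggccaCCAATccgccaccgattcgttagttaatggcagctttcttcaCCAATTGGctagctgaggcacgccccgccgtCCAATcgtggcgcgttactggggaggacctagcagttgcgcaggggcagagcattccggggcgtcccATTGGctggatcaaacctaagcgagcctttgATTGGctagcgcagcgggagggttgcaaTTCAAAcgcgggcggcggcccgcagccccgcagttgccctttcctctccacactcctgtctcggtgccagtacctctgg
Cdc20, chr4:118437294-118437593, minus strand: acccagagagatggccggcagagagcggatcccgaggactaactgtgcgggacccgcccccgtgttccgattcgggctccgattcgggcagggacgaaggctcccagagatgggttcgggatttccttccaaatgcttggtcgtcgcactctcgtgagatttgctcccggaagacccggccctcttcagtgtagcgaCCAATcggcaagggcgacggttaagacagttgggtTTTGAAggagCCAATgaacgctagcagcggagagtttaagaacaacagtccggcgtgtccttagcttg
Top2a, chr11:99024140-99024439, minus strand: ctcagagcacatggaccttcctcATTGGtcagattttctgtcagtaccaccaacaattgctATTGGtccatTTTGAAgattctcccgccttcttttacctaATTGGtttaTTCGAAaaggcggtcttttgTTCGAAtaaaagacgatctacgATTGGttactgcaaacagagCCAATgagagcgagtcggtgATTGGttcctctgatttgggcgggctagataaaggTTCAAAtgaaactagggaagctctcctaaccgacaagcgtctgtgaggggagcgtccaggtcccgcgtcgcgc
Pttg1, chr11:43425932-43426231, minus strand: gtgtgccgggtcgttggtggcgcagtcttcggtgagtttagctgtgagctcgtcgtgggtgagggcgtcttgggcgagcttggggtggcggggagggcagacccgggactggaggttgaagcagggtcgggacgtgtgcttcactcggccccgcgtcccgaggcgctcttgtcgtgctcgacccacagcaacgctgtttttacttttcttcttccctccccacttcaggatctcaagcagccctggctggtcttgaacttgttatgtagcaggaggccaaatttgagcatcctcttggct
The Ube2c window held 1 CHR and 6 CCAAT matches, the Cdc20 window 1 and 2, the Top2a window 4 and 6, and the Pttg1 window 0 of each. The second form of the CHR reads alike on both strands and is counted once. Of the 39 genes with a window, 6 held neither motif. Of these Pttg1 fell in WT, Birc5 and Nusap1 rose, and Nuf2, Tacc3 and G2e3 were not called. Across the genes, 31 of 42 windows (73.8%) held a CHR, against 6316 of all 32851 windows (19.2%). A CCAAT box was found in 32 windows (76.2%, against 37.4% overall), and both in 27 (64.3%, against 7.52%). These shares are descriptions of letters and do not show binding.

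Library totals ranged from 7930525 to 10167695 counts. Reads of the miR-210 precursor gene numbered 1 to 5 in the WT libraries and 0 in all 6 KO libraries, too few to say more than that they do not go against the labels. All 7 macrophage markers listed (such as Cd68, Adgre1 and Csf1r) were detected in every group, and the summed normalized level of 4 M2 markers was 13969 to 18915 in the M0 libraries and 58317 to 63670 in the M2 libraries. Lymphocyte and myeloid progenitor markers summed to at most 8.97 normalized counts in any library. A normalized count is a TMM-scaled count at the mean library size of the 12 libraries.

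All 48 genes were expressed in all 4 groups, with 5 to 1146 raw counts in a library. Counting error is therefore largest for genes such as Cdc25c and Plk1. Sequence shared with other genes on the same strand, mostly pseudogenes, was widest in Ccnb1, where 38.4% of the 50-base stretches of its longest transcript also occur elsewhere, followed by Cks2 (19.1%), Stmn1 (12.6%), Cdc20 (11%) and Plk1 (5.36%). Reads from these stretches could be assigned to either gene or to none, so the levels of these genes are less certain. Per kilobase of exon, Smc4, a condensin subunit, was the most abundant in WT M0, at 10.9 depth-scaled counts (CPM) per kilobase. It was followed by Pttg1 (securin, the inhibitor of separase) at 9.15 and Ckap5, a microtubule polymerase, at 9.05 on the same scale. The proliferation marker Mki67 stood at 5.87, and Cdc25c, a phosphatase that activates CDK1, was the lowest at 0.152.

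The summed normalized count of the 48 genes was 5808, 7038 and 5172 for WT M0, whereas WT M2 libraries held 8604, 8709 and 8421. In KO it was 7671, 7845 and 6283 in M0 and 9336, 8873 and 9522 in M2. Both M2 groups lay above both M0 groups, and the highest WT M0 library overlapped with KO M0. The M0 libraries spread more than the M2 libraries, with means of 6006 ± 949 (SD, n = 3) in WT M0 and 7267 ± 856 (SD, n = 3) in KO M0 against 8578 ± 146 (SD, n = 3) in WT M2 and 9244 ± 334 (SD, n = 3) in KO M2. The spread was shared by many genes. WT M0 replicate 2 was the highest of its group for 40 of the 48 genes and replicate 3 the lowest for 37, and KO M0 replicate 3 was the lowest of its group for 38. Together the 48 genes made up 0.0577% to 0.104% of the counts of a library.

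**Figure D1:**
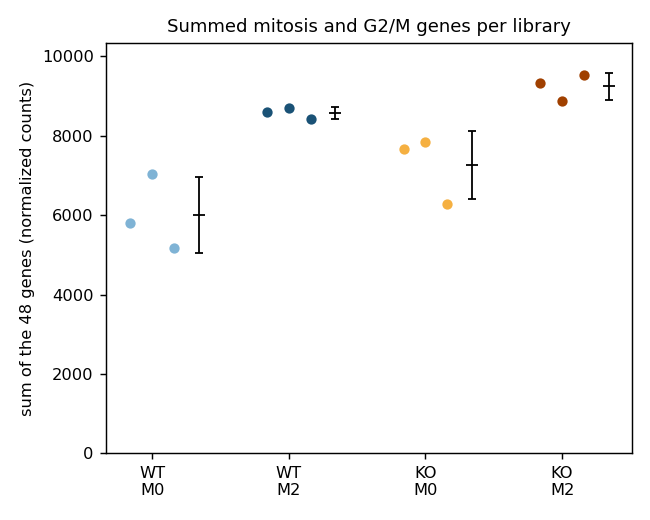
Sum of the normalized counts of the 48 mitosis and G2/M genes in each of the 12 libraries (points), with the mean ± SD of each group of 3 libraries (bars). The WT M0 libraries spread from 5172 to 7038 and the WT M2 libraries only from 8421 to 8709.

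**Figure D2:**
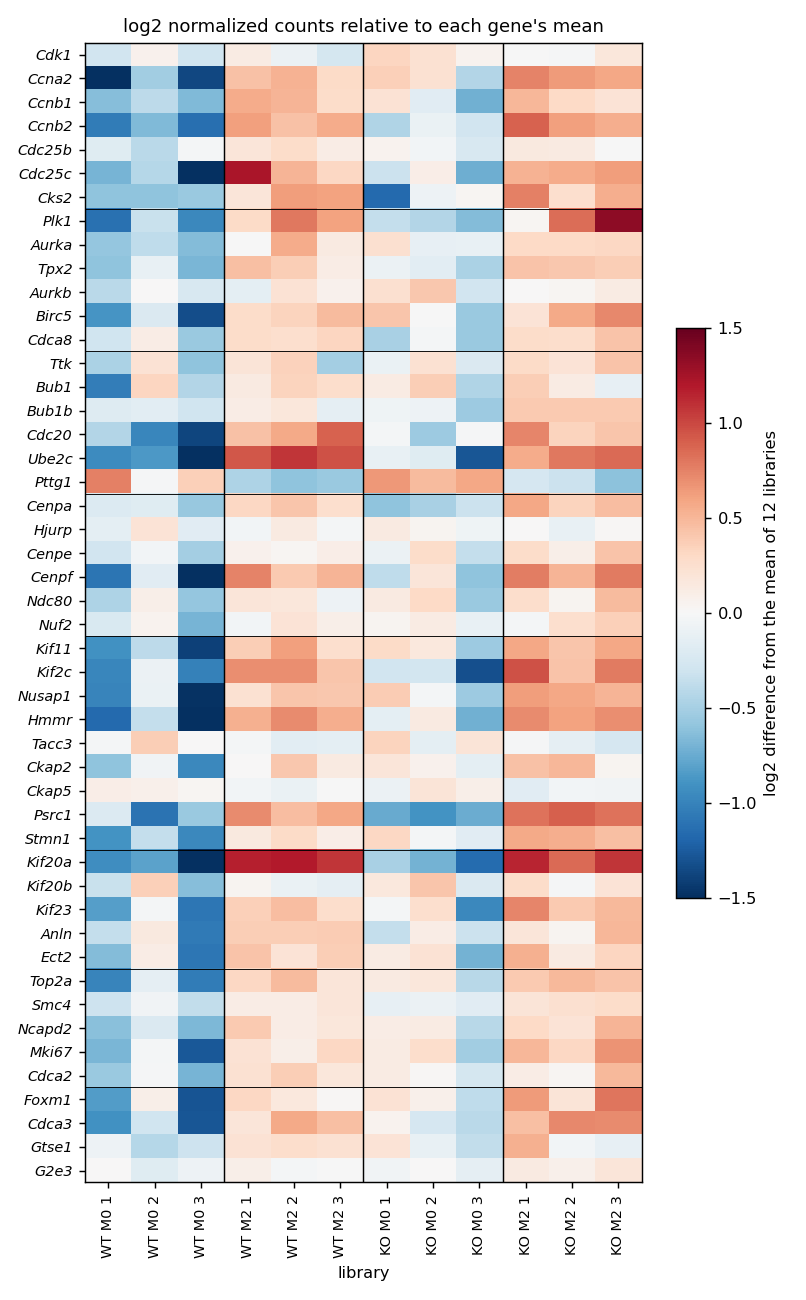
Each row is a gene and each column a library. Colour gives the log2 normalized count minus the gene's mean over the 12 libraries, with the colour scale ending at -1.5 and 1.5, and lines separate groups and gene roles. Most rows are blue in WT M0, paler in KO M0 and red in both M2 groups, WT M0 replicate 2 is paler than the other WT M0 libraries, and Pttg1 runs the opposite way.

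The first question was how the genes changed when WT macrophages were polarized. Pairs of groups were compared with edgeR's quasi-likelihood test with Benjamini-Hochberg (BH) adjustment over all genes tested. The call required an adjusted p under 0.05 together with a change of more than 1.2-fold in either direction. In polarization the gene also had to code for a protein and to average more than 10 normalized counts. In WT, 34 of the 48 genes rose in M2 and 1 fell, where 23.6% of the 11135 genes eligible for a call rose and 21.8% fell. The median log2 fold change of the 48 was 0.75, and that of all genes tested was -0.00. With each of the 6 libraries left out in turn, 30 to 40 of the 48 genes were called, and 4644 to 5023 of all genes. The DESeq2 Wald test called 31 higher (21.9% of all eligible genes) and 1 lower, and did not call Mki67, Cdca8 and Gtse1 (adjusted p of 0.071, 0.076 and 0.073). The 4 dendritic cell markers listed summed to between 2.81 and 8.62 normalized counts in the M0 libraries of both genotypes and to between 91.9 and 163 in the M2 libraries. Zbtb46 passed 3 counts in a library of every group but WT M0 and Xcr1 in one of every group but WT M2, while Flt3 and Siglech stayed at 3 counts or fewer. Their part in the polarization results was not tested.

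Among the regulators of the CDK1 switch, 6 of 7 rose in WT. Ccna2, cyclin A2, had 69.1, 136 and 75.4 normalized counts before and 265, 281 and 239 after IL-4, a log2 increase of 1.48 ± 0.19 (SE, edgeR adjusted p = 2.27e-05). Ccna2, Psrc1, Bub1b and Foxm1 are given with library values because they stood out once the values were seen. Ccnb1, cyclin B1, went from 49.5, 58.9 and 48.7 to 114, 111 and 94.2 (1.02 ± 0.15), without overlap. Cdc25c went from 9.21, 11.2 and 4.6 to 36.3, 21.9 and 19.1 (1.63 ± 0.37). Cdc25b, its relative that acts earlier, went from 256, 219 and 285 to 331, 352 and 315 (0.40 ± 0.10). Neither phosphatase overlapped between M0 and M2. Cdk1 itself had 115, 147 and 115 in M0 and 154, 133 and 118 in M2, and its log2 fold change of 0.10 ± 0.14 did not pass the test. So the RNA of the kinase overlapped between the groups, while that of all 3 cyclins (Ccna2, Ccnb1 and Ccnb2) was higher in every M2 library than in any M0 library. The share of all genes without overlap between M0 and M2 was not counted in either genotype. Here and below, a lack of overlap between M0 and M2 is therefore only a description of the gene named.

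The mitotic kinases and the chromosomal passenger complex rose in 5 of 6 cases, with log2 fold changes between 0.51 (Cdca8, borealin) and 1.37 (Plk1, the polo-like kinase). The call of Cdca8 was lost in 5 of the 6 fits that left out a library, and Aurkb was not called. In the spindle checkpoint and anaphase-promoting complex only 2 of 6 genes rose and 1 fell. Ube2c, the E2 enzyme of the complex, lies on chromosome 2 of GRCm39 from 164611768 to 164620742 and had 15, 15.9 and 8.27 normalized counts before and 56.6, 62.0 and 57.2 after IL-4 (log2 increase 2.18 ± 0.24). Cdc20, its activator, had 28.8, 19.6 and 14.7 against 53.4, 58.2 and 72.9 (1.57 ± 0.24). For both genes the lowest M2 library was well above the highest M0 library. Pttg1, whose securin protein this complex destroys, went the other way, from 263, 153 and 199 to 112, 102 and 105 (a log2 change of -0.93 ± 0.17, edgeR adjusted p = 0.00051). The checkpoint kinases Ttk and Bub1 and the checkpoint protein Bub1b were not called in WT.

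At the centromere and kinetochore, 2 of 6 genes rose, Cenpa, the centromeric histone, by 0.64 ± 0.11 and Cenpf by 1.39 ± 0.26 on the log2 scale. Hjurp, the chaperone that loads Cenpa, stood at 591, 752 and 582 in M0 and at 637, 720 and 642 in M2. Among the spindle proteins 7 of 9 rose. Hmmr, a spindle protein that binds hyaluronan when outside the cell, had 33.4, 58.9 and 25.7 in M0 and 110, 124 and 111 in M2 (1.54 ± 0.23). Stmn1, stathmin, which destabilizes microtubules, had 105, 152 and 100 in M0 and 217, 240 and 210 in M2 (0.90 ± 0.15). Tacc3 and Ckap5 were the 2 not called, both with a log2 fold change below 0.

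Of 5 cytokinesis genes, 4 rose. Kif20a, a kinesin of the central spindle, had the largest log2 increase of the 48, 2.42 ± 0.26, from 26.5, 29.0 and 9.19 normalized counts to 115, 117 and 108. All 5 genes of mitotic chromosomes rose. Top2a, which untangles DNA, had 173, 313 and 165 against 426, 478 and 390 (0.99 ± 0.19). Mki67, whose protein coats mitotic chromosomes, had 507, 797 and 336 against 941, 865 and 1007 (0.78 ± 0.21), a call that the DESeq2 Wald test did not make. Cdca2, which recruits a phosphatase to chromatin, had 56.4, 82.3 and 51.5 against 98.2, 108 and 94.2 (0.66 ± 0.18, edgeR adjusted p = 0.0080). In each of these genes no M0 library reached the M2 range. Foxm1, the transcription factor of the programme, rose by 0.73 ± 0.26 although its groups overlapped, with 50.7, 96.4 and 36.8 in M0 and 113, 101 and 91.9 in M2. Its call was lost in 4 of the 6 fits that left out a library.

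The same comparison in miR-210 KO macrophages gave 24 genes higher in M2 and again Pttg1 lower, where 18.5% of 11116 eligible genes rose and 18.1% fell. The median log2 fold change of the 48 was 0.49. The DESeq2 Wald test called 23 higher (17.5% of all eligible genes) and 1 lower. Leaving out a library gave 16 to 26 calls in KO, against 30 to 40 in WT. The count was 16 without KO M2 replicate 3 and 17 without either KO M0 replicate 3 or KO M2 replicate 1. Over all genes, 4065 were called in the main fit and 3774, 3673 and 3387 in these fits, in that order. Of the 48 genes, 13 were called in all 6 fits that left out a library, against 30 in WT.

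The largest increases in KO were those of Kif20a, Psrc1, Plk1, Kif2c and Ube2c. Kif20a had 36.3, 31.0 and 22.6 normalized counts in KO M0 and 113, 91.9 and 108 in KO M2 (1.80 ± 0.20). Psrc1, a spindle protein, had 108, 98.3 and 109 against 321, 340 and 322 (1.64 ± 0.10), and Ube2c 27.2, 25.9 and 11.7 against 43.3, 51.2 and 53.3 (1.19 ± 0.29). None of these 3 overlapped between M0 and M2. Cenpa rose by 0.93 ± 0.11, Ccnb2 by 0.96 ± 0.20 and Hmmr, with 68.6, 83.6 and 46.0 against 124, 116 and 124, by 0.87 ± 0.19. Bub1b was the gene called in KO and not in WT, with 86.7, 86.2 and 62.2 against 120, 119 and 119 (0.61 ± 0.16). Pttg1 had 244, 216 and 232 in KO M0 and 130, 124 and 101 in KO M2 (-0.96 ± 0.12), again without overlap. It was the single decrease called in either genotype.

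For the cyclins and the usual markers of dividing cells the KO changes were as follows. Ccna2 had 251, 229 and 144 normalized counts in KO M0 and 327, 305 and 293 in KO M2 (0.57 ± 0.16, edgeR adjusted p = 0.016). Top2a had 377, 386 and 258 against 451, 481 and 463, Mki67 885, 978 and 567 against 1152, 1009 and 1300, and Stmn1 243, 192 and 174 against 291, 286 and 268, and all 3 were called. Leaving out a library kept the calls of Ccna2 and Stmn1 in 5 of 6 fits, that of Top2a in 4 and that of Mki67 in 3. Ccnb1 had 89.7, 69.0 and 46.9 against 110, 95.7 and 89.6, with an overlap of 1 library, and was not called (0.53 ± 0.21, edgeR adjusted p = 0.073). Cdk1 had 176, 165 and 146 in KO M0 and 141, 139 and 159 in KO M2, a log2 change of -0.15 ± 0.12 that did not pass the test.

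The study singled out Cdc20, Cdc25c, Cdc25b and Cdca2, which it reported as rising with IL-4 in WT and unchanged in KO. Its cell assays also gave a lower share of cycling cells in KO M2 than in WT M2, and slower proliferation in KO. These genes, and Stmn1, which it also named, came from these same libraries, so their values are not independent evidence of a direction. Cdc20 had 38.3, 26.7 and 38.8 normalized counts in KO M0 and 65.5, 49.3 and 52.2 in KO M2, without overlap, and a log2 increase of 0.69 ± 0.22 (edgeR adjusted p = 0.031). Cdc25c had 12.1, 16.4 and 9.02 against 22.2, 22.7 and 23.8 (0.86 ± 0.30, edgeR adjusted p = 0.039). Both passed the test in KO as in WT, but other settings did not keep these calls. The DESeq2 Wald test gave adjusted p values of 0.056 for Cdc20 and 0.13 for Cdc25c, and leaving out a library kept the call of Cdc20 in 3 of 6 fits and that of Cdc25c in 1. Cdc25b had 301, 282 and 246 against 323, 318 and 290 (0.17 ± 0.10) and Cdca2 90.8, 84.5 and 69.5 against 89.9, 85.3 and 117 (0.25 ± 0.17). Neither was called in KO, and their M0 and M2 libraries overlapped.

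**Figure D3:**
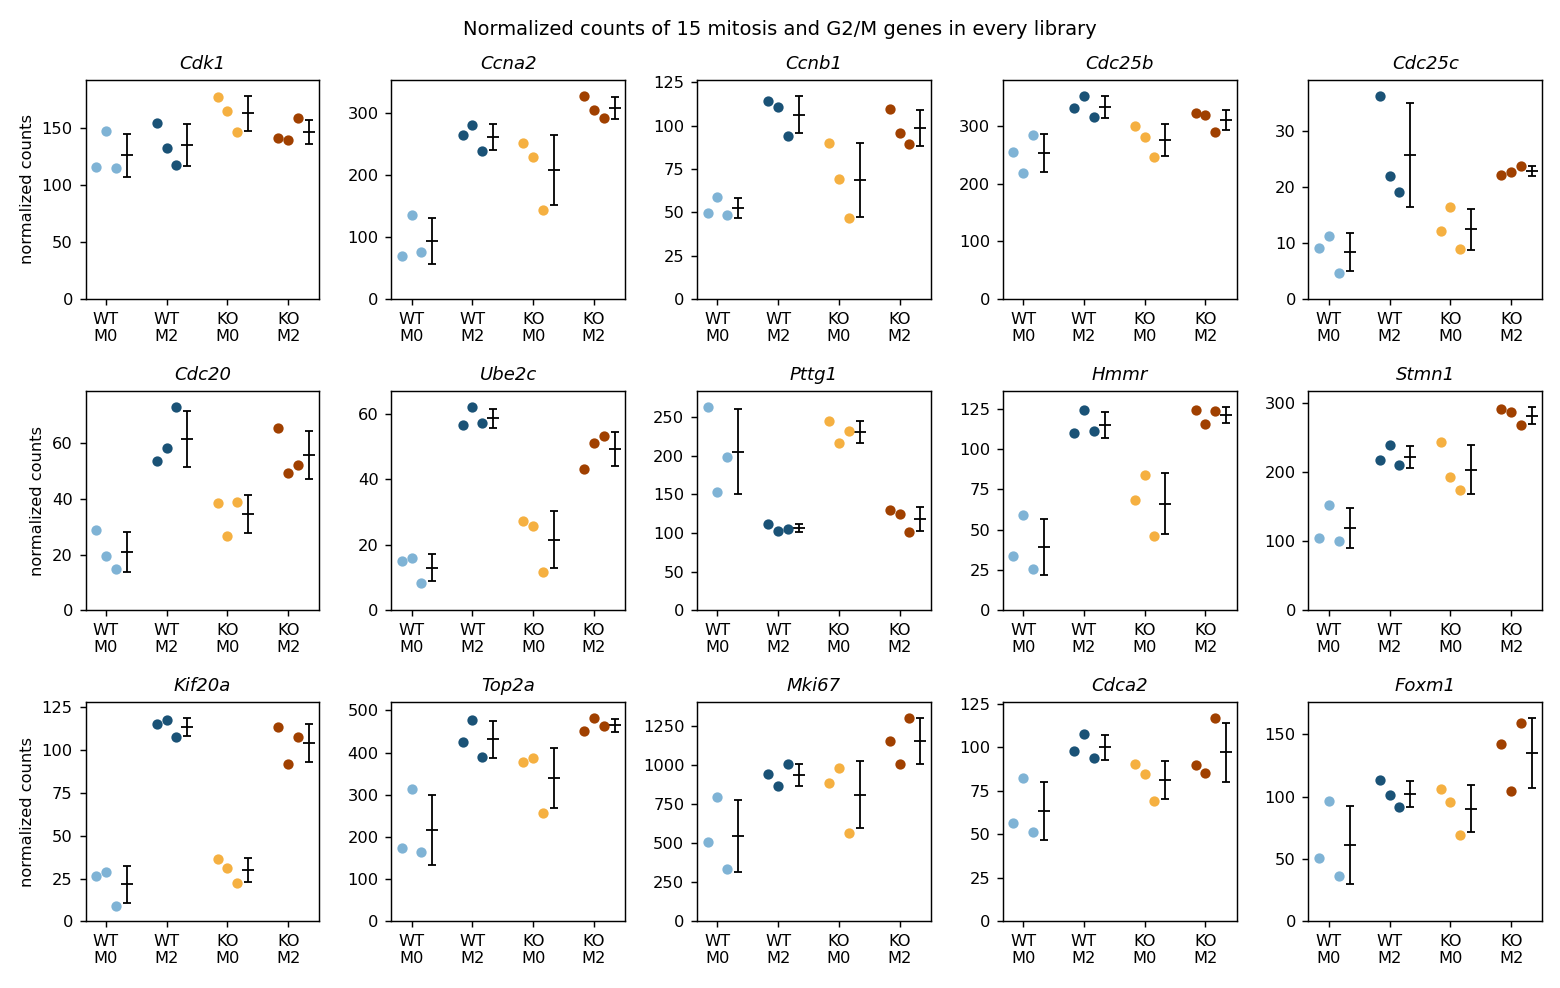
Normalized counts of 15 of the genes in every library (points) with the mean ± SD of each group of 3 libraries (bars), all axes from 0. Ube2c and Kif20a separate M0 from M2 in both genotypes, Pttg1 runs downward, Cdk1 overlaps throughout, and Ccna2, Top2a and Stmn1 are higher in KO M0 than in WT M0 on average.

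The increases were compared between genotypes by the interaction of genotype and polarization, fitted to all 12 libraries. Of the 48 genes, 23 rose in both genotypes, 11 were called higher in WT and not in KO, 1 in KO and not in WT, Pttg1 fell in both, and 12 were not called in either. Of all eligible genes, more were called higher in WT (23.6%) than in KO (18.5%), and how they split between the genotypes was not counted. A call in 1 genotype and not in the other is not a difference between them. No gene of the 48 was called by the interaction (edgeR, 0% of the 14825 genes tested were called), with a lowest adjusted p of 0.31, and the DESeq2 Wald test also called 0 (0.9% of the 10220 genes to which it gave an adjusted p were called), though it gave only 33 of the 48 genes an adjusted p. At an unadjusted p under 0.05, 5 genes were found. In 4 of them, Ccna2, Cdc20, Ube2c and Kif11, the increase was smaller in KO (8.33% of the 48 against 4.88% of all genes), and in Psrc1 it was larger.

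The estimates were nevertheless mostly to one side. The interaction was below 0, meaning a smaller log2 increase in KO, for 41 of the 48 genes, with a median of -0.28 against -0.00 for all genes. It was -0.90 ± 0.29 (SE, edgeR adjusted p = 0.31) for Ccna2, -0.98 ± 0.40 (0.46) for Ube2c and -0.88 ± 0.34 (0.42) for Cdc20. For the other genes the study picked it was -0.76 ± 0.49 (0.68) for Cdc25c, -0.22 ± 0.15 (0.68) for Cdc25b and -0.40 ± 0.26 (0.67) for Cdca2. The genes share the libraries that set this difference, above all those of WT M0, so their common sign does not count as 48 observations. With 1 library left out in turn, the median of the 48 ranged from -0.55 (without WT M0 replicate 2) to -0.15 (without WT M0 replicate 3). Without WT M0 replicate 2, Ccna2 (-1.29, edgeR adjusted p = 0.034) and Top2a (-0.92, edgeR adjusted p = 0.048) were called, where 0.339% of all genes were called below 0.

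**Figure D4:**
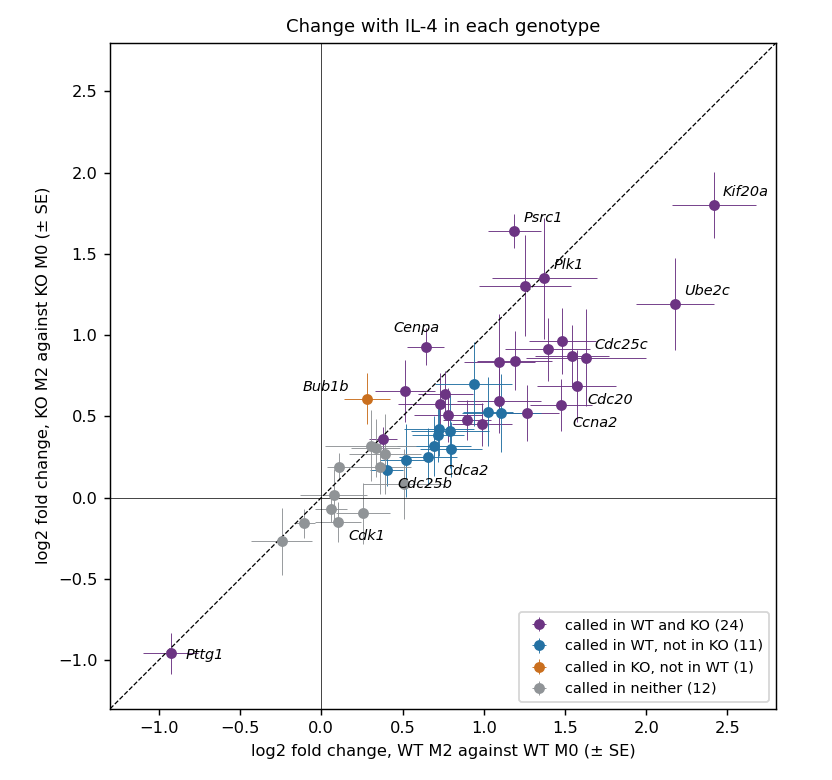
Log2 fold change of M2 against M0 in WT (horizontal) and in KO (vertical) for the 48 genes, with SE bars, coloured by the call in each genotype. The dashed line marks equal change, and 41 genes lie below it, with Ube2c and Ccna2 far from the line and Psrc1, Cenpa and Bub1b above it.

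The genotypes were next compared in M0. This comparison shares the WT M0 libraries with the one of WT M2 against WT M0 and the KO M0 libraries with that of KO M2 against KO M0. No gene of the 48 was called by edgeR, where 0.22% of 14089 genes were called higher and 0.241% lower in KO, and the DESeq2 Wald test called 3 (Ccna2, Kif11 and Stmn1, each higher, where it called 0.76% of all genes higher). At an unadjusted p under 0.05, 11 of the 48 genes were higher in KO (22.9%, against 5.04% of all genes) and none was lower. The log2 fold change was above 0 for 45 genes, with a median of 0.35 against 0.00 for all genes. Because the genes share the same libraries, these counts are not 48 separate observations. In 4 genes, Ccna2, Ccnb2, Aurka and Stmn1, every KO library was above every WT library (8.33%, against 7.15% of all genes), and in none was it the reverse (against 7.28%).

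Ccna2 had the largest difference in M0, 69.1, 136 and 75.4 normalized counts in WT against 251, 229 and 144 in KO (log2 1.14 ± 0.26, edgeR adjusted p = 0.095). The highest WT library and the lowest KO library lay close together. Kif11, the kinesin that pushes the spindle poles apart, had a log2 difference of 0.85 ± 0.26 and Stmn1 of 0.76 ± 0.18 (edgeR adjusted p = 0.11). Cdc20 stood at 0.73 ± 0.29, Top2a at 0.64 ± 0.23 and Mki67 at 0.57 ± 0.27. Psrc1, Cenpa and Cdca8 had a log2 difference below 0, none past an unadjusted p of 0.05. The value of Psrc1 was 0.01 without WT M0 replicate 1 and that of Cdca8 0.11 without WT M0 replicate 2.

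Single libraries weighed on these numbers in both directions. The median log2 fold change of the 48 was 0.22 without WT M0 replicate 3 and 0.23 without KO M0 replicate 2. It was 0.51 without KO M0 replicate 3 and 0.60 without WT M0 replicate 2. Without WT M0 replicate 2, whose mitosis genes were mostly the highest of its group, 6 genes were called higher in KO M0, namely Ccna2, Foxm1, Kif11, Mki67, Stmn1 and Top2a, where 0.989% of all genes were called higher in that fit, and leaving out any other library gave 0. Summed neutrophil and fibroblast markers were also higher in KO M0 than in WT M0. The 7 neutrophil markers summed to 1015 to 1254 normalized counts in KO M0 and 563 to 786 in WT M0, with S100a8 and Mmp8 the only ones above 3 counts in KO M0. In KO M2 the same sum was 653 to 769. S100a9 went the other way, passing 3 counts in WT M0 and WT M2 but in neither KO group. Ly6g, Camp and Ltf did not pass 3 counts in any group. The 6 fibroblast markers summed to 15.1 to 22.6 in KO M0, 9.21 to 12.2 in WT M0 and 5.55 to 9.07 in KO M2. Neutrophils were among the cells depleted at the start of the cultures. Whether neutrophils or fibroblasts were present, and their part in the results that involve KO M0, was not tested.

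In M2, again, no gene was called by edgeR between the genotypes, where 0.408% of 13980 genes were called higher and 0.572% lower in KO, and the DESeq2 Wald test called 0, where it called 1% of all genes. At an unadjusted p under 0.05, 6 of the 48 genes were higher in KO (12.5%, against 4.86% of all genes) and none lower. The log2 fold change was above 0 for 34 genes, and the median was 0.12 against 0.00 for all genes. Here too the genes share the same libraries and are not 48 separate observations. In 7 genes, Ccna2, Bub1b, Nusap1, Psrc1, Stmn1, Smc4 and Mki67, every KO M2 library was above every WT M2 library (14.6%, against 7.52% of all genes). Ube2c alone was lower without overlap (2.08%, against 8.53% of all genes).

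Stmn1 had the lowest adjusted p, with 217, 240 and 210 normalized counts in WT M2 and 291, 286 and 268 in KO M2 (log2 0.35 ± 0.09, edgeR adjusted p = 0.084). Ccna2 had 265, 281 and 239 in WT M2 against 327, 305 and 293 in KO M2 (log2 0.24 ± 0.09). Stmn1 and Ccna2 were the mitosis and G2/M genes whose genotypes overlapped neither in M0 nor in M2. The share of all genes that overlapped in neither state was not counted, so this only describes the genes named. Mki67 had a log2 difference of 0.30 ± 0.09 (edgeR adjusted p = 0.13) and Foxm1, with 142, 104 and 159 in KO M2, of 0.39 ± 0.15. The 5 genes that rose most with IL-4 in WT had small differences in M2, at -0.12 ± 0.13 for Kif20a, -0.25 ± 0.17 for Ube2c, -0.16 ± 0.27 for Cdc25c, -0.14 ± 0.18 for Cdc20 and 0.07 ± 0.12 for Hmmr. None of these values passed the adjusted test.

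**Figure D5:**
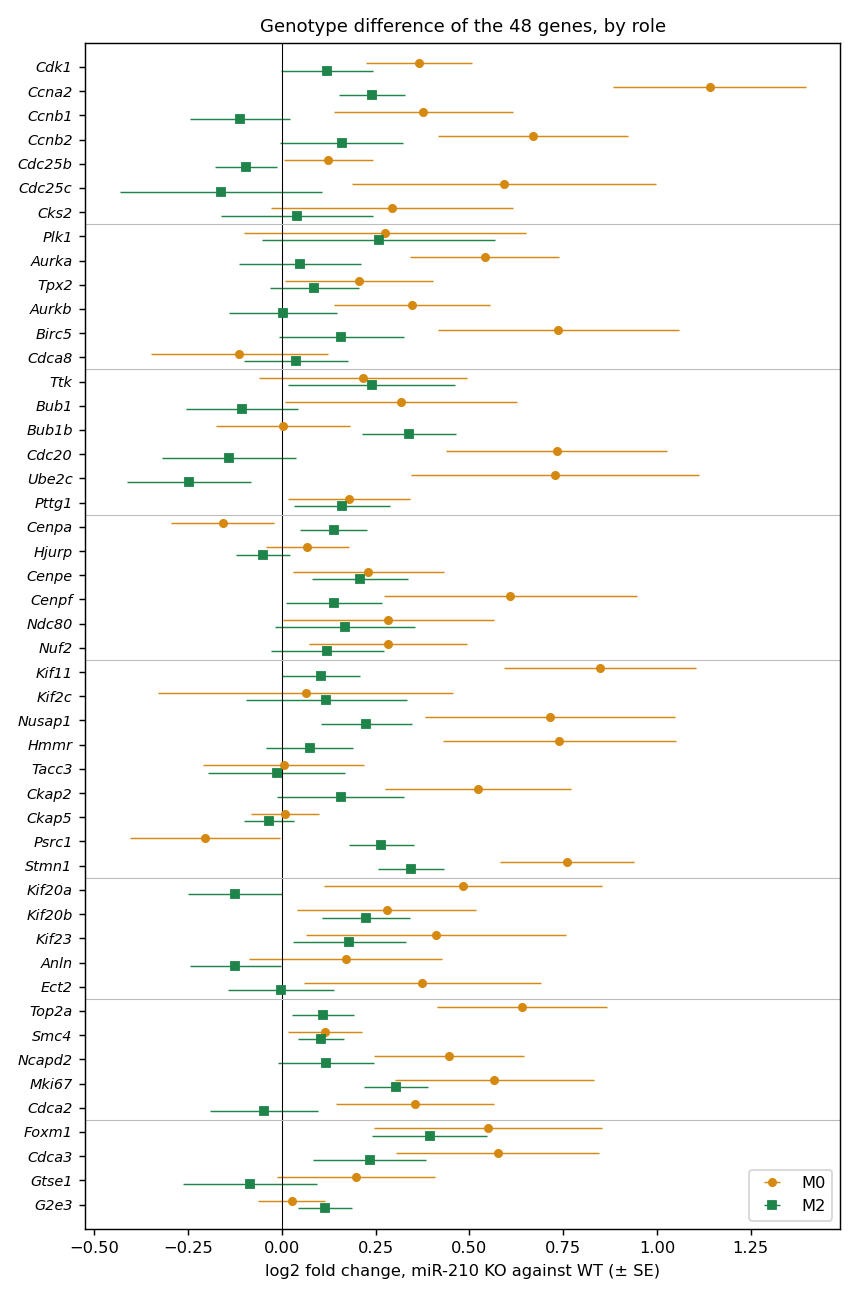
Log2 fold change of miR-210 KO against WT with SE in M0 (circles) and M2 (squares) for each of the 48 genes, grouped by role with lines between roles. In M0 45 values lie right of 0 and many have wide errors, in M2 34 do, and none of the 96 values passed the adjusted test.

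Other genes of the cell cycle were counted from lists. Of 53 further mitosis genes, 52 were tested in WT, where 26 rose in M2 (50%, against 23.6% of eligible genes) and 2 fell (3.85%, against 21.8%). In KO M2, 8 of 53 rose (15.1%, against 18.5%) and 4 fell (7.55%, against 18.1%). Leaving out a library gave 15 to 36 rising in WT and 2 to 11 in KO. Of all eligible genes, these fits called 2447 to 2619 higher in WT and 1713 to 2092 higher in KO. Prc1, which bundles microtubules of the midzone, rose by 1.63 ± 0.22 in WT and 0.76 ± 0.21 in KO on the log2 scale, and Aspm, a spindle pole protein, by 1.33 ± 0.21 and 1.07 ± 0.18. Ncapg2, a subunit of condensin II, fell in both, with log2 changes of -2.73 ± 0.11 in WT and -2.40 ± 0.10 in KO, the largest of the list. In KO M0 against WT M0, 48 of 52 had a log2 fold change above 0. None was called by edgeR or DESeq2. At an unadjusted p under 0.05, 18 were higher in KO, against 5.04% of all genes. Without WT M0 replicate 2, 7 were called, where 0.989% of all genes were called higher in that fit. These genes share the same libraries and are not separate observations.

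Genes of DNA replication were counted in the same way. Of 26 S-phase genes, 2 rose in WT M2 (Pcna by 0.72 ± 0.07 and Fen1 by 0.28 ± 0.08 on the log2 scale) and none fell. That was 7.69% rising, against 23.6% of eligible genes, and 0% falling, against 21.8%. In KO M2, 1 rose (Pcna, 0.45 ± 0.10), which was 3.85% against 18.5% of eligible genes. In the same comparison 9 fell (34.6%, against 18.1%), among them the replicative helicase genes Mcm2 (-0.68 ± 0.11), Mcm6 (-0.45 ± 0.09), Mcm3, Mcm4 and Mcm5. These counts depended on the libraries, with 4 to 12 falling in KO when a library was left out, and 11 rising in WT without WT M0 replicate 2. Of all eligible genes, 1633 to 2102 fell in KO in such fits, and 2619 of 11135 rose in WT without WT M0 replicate 2. Without WT M0 replicate 1, 1 of the S-phase genes rose and 2 fell in WT, and their median log2 fold change went from 0.11 to -0.01. That fit called 2579 of all 11164 eligible genes higher and 2323 lower. In KO M0 against WT M0 all 26 had a log2 fold change above 0 (median 0.35). None was called by edgeR and 2 by DESeq2, which called 0.76% of all genes higher. At an unadjusted p under 0.05, 14 were higher, against 5.04% of all genes. Without WT M0 replicate 2 edgeR called 10, where it called 0.989% of all genes higher. These genes also share the same libraries. Among 22 regulators of the programme, the CDK1-inhibiting kinase gene Pkmyt1 rose in both genotypes (1.55 ± 0.20 in WT, 0.75 ± 0.13 in KO), and Ccnd1, the cyclin of early G1, fell in both (-1.86 ± 0.12 in WT and -1.89 ± 0.14 in KO). In all, 4 of the 22 rose (18.2%, against 23.6% of eligible genes) and 3 fell (13.6%, against 21.8%) in WT, and 8 rose without WT M0 replicate 2. In KO 1 rose (4.55%, against 18.5%) and 5 fell (22.7%, against 18.1%).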

How the data were processed

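Total RNA of the 12 libraries was depleted of ribosomal RNA, and both ends of strand-specific fragments were sequenced. The authors trimmed reads with Trimmomatic, removed duplicates with Picard, aligned to GRCm39 with STAR and used featureCounts, with strand, to count reads per gene. The raw counts were deposited in 4 tables, 1 for every pair compared. The authors also deposited a signal, the counts divided by size factors set within each pair, used here only for an alternative of the summed level. Duplicate removal can lower counts of abundant genes. Columns were assigned by their group names, and the numbers 1 to 3 were not tied to samples. Symbols and coordinates were from GENCODE (GRCm39), which matched 56323 of 56941 identifiers.

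The counts were tested with edgeR 4.0.16 (TMM, filterByExpr, quasi-likelihood) in R 4.3.3 on the 6 libraries of a pair, or all 12 for the interaction, which was called on the adjusted p alone. The SE is the log2 fold change divided by the square root of F. Scripts were tested on simulated data. DESeq2 1.42.0, other scalings and filters, other limits and leaving out each library were alternatives. The 48 genes and the lists were chosen with earlier results of these data known. Values in every library were given for the genes the study picked, for Stmn1, Mki67, Top2a, Ccnb1 and Cdk1, for genes called between genotypes, and for the 5 largest increases and decreases called in WT, others being named after their values were seen. Erythroid markers summed to at most 38.2 normalized counts in a library. Sequence shared between genes was sought by matching all 50-base stretches to GENCODE transcripts.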

Additional observations from a re-analysis of the deposited data

How the results depend on the processing

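Each group held 3 libraries, so counts of calls near the threshold depend on single libraries, and counting error is largest for the least abundant genes. When calls needed a |log2 fold change| above 1, 17 genes were called in WT polarization and 5 in KO. Of all eligible genes, 1446 of 11135 were then called in WT and 1292 of 11116 in KO. Leaving out 1 library gave 30 to 40 calls among the 48 genes in WT and 16 to 26 in KO. Over all genes these fits called 4644 to 5023 in WT and 3387 to 4117 in KO, against 5055 and 4065 in the main fits. Between genotypes in M0, 0 of the 48 genes and 65 of all 14089 tested were called. The DESeq2 Wald test called 3 of the 48 and 218 of all genes. No filter on low counts called 7 of the 48 and 532 of 26255 tested. A fit of all 12 libraries called 2 of the 48 and 248 of 14825 tested. Leaving out 1 library gave 0 to 6 of the 48 and 20 to 302 of all genes. In M2, no filter called 2 (Mki67 and Stmn1) and leaving out 1 library 0 to 1. Over all genes these settings called 360 of 26165 and 53 to 215, against 137 of 13980 in the main fit. By the interaction, no filter called 3 (Ccna2, Kif11 and Top2a) and leaving out 1 library 0 to 2. Over all genes these settings called 341 of 28668 and 0 to 77, against 0 of 14825 in the main fit. With the library number as a replicate block, 5 genes were called in M0 (Ccna2, Kif11, Mki67, Stmn1 and Top2a) and 2 in M2. The block fits called 284 of all 14089 genes in M0 and 289 of 13980 in M2. Whether the numbers pair the libraries is not known. Same-numbered libraries of WT M0 and KO M0 had correlations of 0.092, 0.29 and 0.019 in their deviations from the group means. WT M0 libraries 1 and 2 matched the same number in KO M0 best, and library 3 matched number 1 best. Such mixed and mostly weak correlations cannot decide it. No called log2 fold change of the 48 genes turned its direction, but 43 values that were not called lay on the other side of 0 under at least 1 alternative, 14 of them in KO M2 against WT M2, 14 in the interaction, 8 in KO M0 against WT M0, 4 in KO polarization and 3 in WT polarization. Total counts or the deposited normalized counts in place of TMM moved no ratio of summed levels between groups beyond its error, while the WT M2 level itself was 8103 on one deposited scale against 8578. With a promoter window from 100 bases before the start, 66.7% of the genes' windows held a CHR, 66.7% a CCAAT box and 52.4% both, within the errors of the longer window, and the shares of all promoters fell to 8.59%, 23.4% and 2.09%.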
